A study of Mus musculus with 24 samples.

Results

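The 33 genes described here belong to the endoplasmic reticulum (ER) stress response, also called the unfolded protein response. They were taken as a fixed list of symbols, each gene was matched to its microarray probes through the transcript accession of the probe, and each gene was read by its brightest probe. The list makes up 33 of the 23787 genes that could be named on the array, and 52 probes belong to it. RNA came from the whole hippocampus of 48 male Swiss-Webster mice, 8 in each of 6 groups. They were 12 weeks old when they entered the experiment, and then lived in single cages for some weeks before the treatment began. The corticosterone-treated mice drank water with 100 µg/ml of corticosterone, the main glucocorticoid of the mouse, and 0.45% hydroxypropyl-β-cyclodextrin through the 12 h dark phase, in which mice are active. The control mice, brothers of the treated ones, drank the same cyclodextrin vehicle without the hormone. Both kinds of mice were killed in the first, the fifth or the ninth hour of the following light phase, the resting period, here called hours 1, 5 and 9. Animals were not pooled, and each array paired a single control mouse (Cy3 dye) with a single corticosterone-treated mouse (Cy5 dye). The dyes were never swapped, so a difference between treated and control mice within an hour cannot be told apart from a difference between the dyes, while comparisons between hours within a treatment use a single dye.

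Secretory and membrane proteins fold inside the ER, where the chaperone BiP (Hspa5), its relatives and the protein disulfide isomerases assist them, and proteins that fail to fold are sent out of the ER and degraded. When unfolded proteins build up, the membrane sensors IRE1 (Ern1), PERK (Eif2ak3) and ATF6 turn on separate branches of a response. IRE1 splices the messenger RNA of Xbp1, ATF6 is cut into a transcription factor, and both raise the transcription of chaperone and degradation genes, while PERK slows translation and favours the transcription factor ATF4, whose targets include Chac1, Trib3 and Asns.

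The promoter element that ATF6 and XBP1 are known to use, the ER stress response element (ERSE), links many of these genes, and it was searched on both strands as CCAAT and CCACG with any 9 bases between them. The window ran from 250 bases before to 50 bases after each gene's start in the mouse build GRCm38.p6, with sequences from RefSeq, and 29 of the 33 genes had such a window. The letters were found in 9 of the 29 genes (31%), which were Calr, Canx, Creld2, Derl3, Dnajc3, Hsp90b1, Hspa5, Pdia6 and Syvn1. They were found in 37 of 27025 genes with a window in all (0.137%) and in 39 of 32851 windows (0.119%). The elements of Hspa5 and of 5 genes whose level differed between hours are given here in the direction of the gene, with the matching letters in capitals. In Creld2, Derl3 and the second element of Hsp90b1 the capitals show the element as its reverse complement, because it was read from the opposite strand.
Hspa5, chr2:34772020-34772048, + strand, capitals from 65 bases before the start: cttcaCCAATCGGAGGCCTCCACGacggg
Hsp90b1, chr10:86705633-86705661, − strand, capitals from 212 bases before the start: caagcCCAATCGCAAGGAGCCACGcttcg
Hsp90b1, chr10:86705528-86705556, − strand, the element nearer to the start: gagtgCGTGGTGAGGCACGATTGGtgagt
Pdia6, chr12:17266486-17266514, + strand, capitals from 98 bases before the start: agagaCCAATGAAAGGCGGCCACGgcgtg
Dnajc3, chr14:118937822-118937850, + strand, capitals from 105 bases before the start: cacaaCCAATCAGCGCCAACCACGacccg
Creld2, chr15:88819515-88819543, + strand, capitals from 126 bases before the start: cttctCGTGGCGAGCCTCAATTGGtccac
Derl3, chr10:75893237-75893265, + strand, capitals from 156 bases before the start: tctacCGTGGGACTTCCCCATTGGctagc

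A shorter form of the element, ERSE-II, searched on both strands as ATTGG and CCACG with any 1 base between them, was found in 2 of the 29 genes, Herpud1 and Dnajb11 (6.9%), against 0.0444% of all genes, and in Dnajb11 it lay after the start. The cyclic AMP response element (CRE) TGACGTCA, which reads the same on both strands and is bound by CREB and ATF family factors, was found in Ppp1r15a alone (3.45%), against 2.03% of all genes. It lay 12 bases before the start of Ppp1r15a, a gene whose level also differed between hours.
Ppp1r15a, chr7:45526269-45526285, − strand: tccggTGACGTCAgcac
The core letters of the unfolded protein response element (TGACGTGG) and of the element shared by C/EBP and ATF4 (TGATGNAAT), searched on both strands, were in none of the 29 windows, against 0.714% and 1.08% of all genes. A match shows only that these letters are present in the window.

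The tissue carried the markers of hippocampus. All 6 markers of its excitatory neurons, among them Prox1 and Camk2a, were well above background in every group, and the sum of their median intensities was between 80150 and 92800. Of the 6 markers of choroid plexus, a tissue beside the hippocampus, Ttr, Kl and Clic6 were well above background in all mice, F5 in all but 1, Folr1 in all treated mice and part of the control mice, and Kcne2 in none. Their medians summed to between 1107 and 1345 in the 6 groups, and Ttr lay between 81.53 and 1782 over single mice. Sums of medians differed between control and treated mice at all 3 hours for several other cell types. The 3 endothelial markers summed to between 8392 and 9200 in control and between 6325 and 7436 in treated mice, mostly through Flt1, while Pecam1 was higher in treated mice at all 3 hours (160.9 to 178.7, against 144.1 to 149.1) and Cldn5 was higher at hour 9 (2886 against 2536). The 3 markers of meningeal fibroblasts summed to between 8195 and 9673 in control and between 6995 and 7333 in treated mice. The 4 interneuron markers were higher in treated mice (67110 to 70290, against 62160 to 63350). Astrocyte markers went both ways, with medians of Aqp4 between 2115 and 2322 in control and between 1135 and 1412 in treated mice, and of Aldh1l1 between 4905 and 4992 and between 6573 and 7261. Between hours 1 and 9 the median of Cldn5 went from 3133 to 2536 in control and from 2333 to 2886 in treated mice, while Flt1 (5709 and 5707) and Pecam1 (145.7 and 149.1) hardly moved in control mice. The 3 microglia markers summed to 6219, 6840 and 6936 in control and to 5598, 6205 and 6796 in treated mice at hours 1, 5 and 9, with Cx3cr1 going from 3665 at hour 1 to 4733 at hour 9 in treated mice. The 3 red blood cell markers at these hours summed to 29460, 27830 and 28360 in control and 31570, 34810 and 28970 in treated mice. Between hours 5 and 9 the median of Hbb-bt went from 5507 to 3921 in treated and from 4671 to 4418 in control mice. These marker differences were not tested, those between treatments cannot be told apart from the dyes, and the part of any of these cell types in the results was not tested. The plasma cell markers Jchain and Mzb1 summed to no more than 67.14 in any group. Between 60.8% and 67.2% of spots in the Cy3 channel and between 64% and 73.5% in the Cy5 channel were well above background. Among the 33 genes, Atf3 was well above background in only 1 of 24 control mice and in 17 of 24 treated mice, and the other 32 genes were well above background in all 48 mice. In bulk tissue a lower level cannot be told apart from fewer cells that express the gene.

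Before the comparisons, 3 of the 24 arrays that stood apart for these genes need to be named. Each was picked because a mouse on it lay past the outlier limit given near the end for more than 1 of these genes. The shares of the 33 genes given here come from the same values as that choice, so they describe it and lend it no support. The first is an array of hour 1 on slide 3 whose corticosterone-treated mouse was the highest of the 8 treated mice of that hour for 17 of the 33 genes (51.5%, against 20.5% of all probes). The second is another array of hour 1, on which both mice were low for Herpud1 and Eif2ak3, while its control mouse was the highest of 8 for 13 of the 33 genes (39.4%, against 15.7% of all probes). The third is an array of hour 5, on which both mice were low for Hspa5, Herpud1 and Eif2ak3, while each was the highest of its group for 13 of the 33 genes (39.4%, against 25.7% of all probes in the control and 27.5% in the treated mouse). The fits were repeated without each of these arrays, a choice made after seeing the data, and calls that changed are given with the results.

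In control mice 3 genes of ER folding and degradation fell between the first and the ninth hour, and no gene of the 33 was called higher. These 3 passed limma's separate channel test at an adjusted p below 0.05 (9.09% of the list), while 0.537% of all 56605 probes passed it and 0.249% were lower. Read by their brightest probe, as the list was, 0.837% of all 23787 named genes passed. They were the chaperone Hsp90b1, the protein disulfide isomerase Pdia6 and the degradation factor Derl3. The luminal chaperones as a role had a median log2 change of -0.27 with 7 of 8 members below 0, and the protein disulfide isomerases had a median of -0.17 with 3 of 4 below 0. The PERK-ATF4 branch had a median of 0.13, with 4 of 7 members above 0 and 3 below, and none of its genes passed the test. The median over all 33 genes was -0.07, with 23 below 0, against 0.0018 over all probes, of which 27948 were below 0. The sensors with Xbp1 had a median of 0.01, the ER J-proteins of -0.02, and the degradation and translocon genes of -0.09.

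Hsp90b1 encodes GRP94, the HSP90 of the ER lumen. Its lowest, median and highest intensity were 18190, 20140 and 23220 in control mice at hour 1, 17430, 19700 and 21400 at hour 5, and 15620, 16830 and 19360 at hour 9. The range of hour 9 lay at the low end and overlapped that of hour 1. Hsp90b1 fell by 0.24 on the log2 scale from hour 1 to hour 9 (SE 0.055, n = 8 mice per hour, adjusted p = 0.0104), and the difference within slides 1, 2 and 3 was -0.22, -0.11 and -0.36.

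Pdia6 forms and rearranges disulfide bonds in client proteins and is a member of the BiP chaperone complex. Control mice ranged from 13620 to 18070 around a median of 15570 at hour 1, from 12690 to 17650 around 14160 at hour 5, and from 11520 to 12980 around 12540 at hour 9. Every control mouse of hour 9 lay below every control mouse of hour 1, as was also the case for Manf, while 0.329% of all probes had ranges that did not overlap. Pdia6 fell by 0.35 (SE 0.080, adjusted p = 0.0148), with within-slide differences of -0.29, -0.36 and -0.42.

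Derl3 is a derlin, a membrane protein of the channel through which misfolded proteins leave the ER. It was dim, between 133.4 and 323.8 with a median of 240.6 in control mice at hour 1, and between 114.2 and 182.4 with a median of 130 at hour 9. Hour 9 was low, but the lowest mouse of hour 1 lay within its range. Derl3 fell by 0.67 (SE 0.156, adjusted p = 0.0303). Without the array of hour 1 on which both mice were low for Herpud1, the difference was -0.59 with an adjusted p of 0.0828.

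Other chaperones had differences of similar size that did not pass the test. Manf, a secreted neurotrophic factor that binds BiP in the ER, had a log2 difference of -0.33 (adjusted p = 0.0601), Sdf2l1, a cofactor of BiP, of -0.38 (adjusted p = 0.0712), and Calr, the lectin chaperone calreticulin, of -0.30 (adjusted p = 0.0542). Without the array of the treated mouse that stood apart, 6 genes were lower at hour 9 in control mice, and Manf, Sdf2l1 and Calr were the 3 added. Without the array of hour 5 that stood apart, 7 genes were lower, namely Calr, Derl3, Hsp90b1, Hspa5, Manf, Pdia6 and Sel1l. With slide as a block in the fit, 4 genes were lower, Derl3, Hsp90b1, Pdia6 and Sdf2l1. With the scanner's processed signals Calr, Derl3, Manf and Pdia6 were lower, Hsp90b1 was not called, and Chac1 was higher.

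No gene of the 33 passed the test in control mice between hours 1 and 5 or between hours 5 and 9. At an unadjusted p below 0.05 there were 4 and 11 of 33, and limma's test with slide as a block also called 0 in both. Among all probes 0.0053% and 0.0336% passed the adjusted test. The median log2 change of the luminal chaperones was -0.08 from hour 1 to hour 5 and -0.19 from hour 5 to hour 9.

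**Figure D1:**
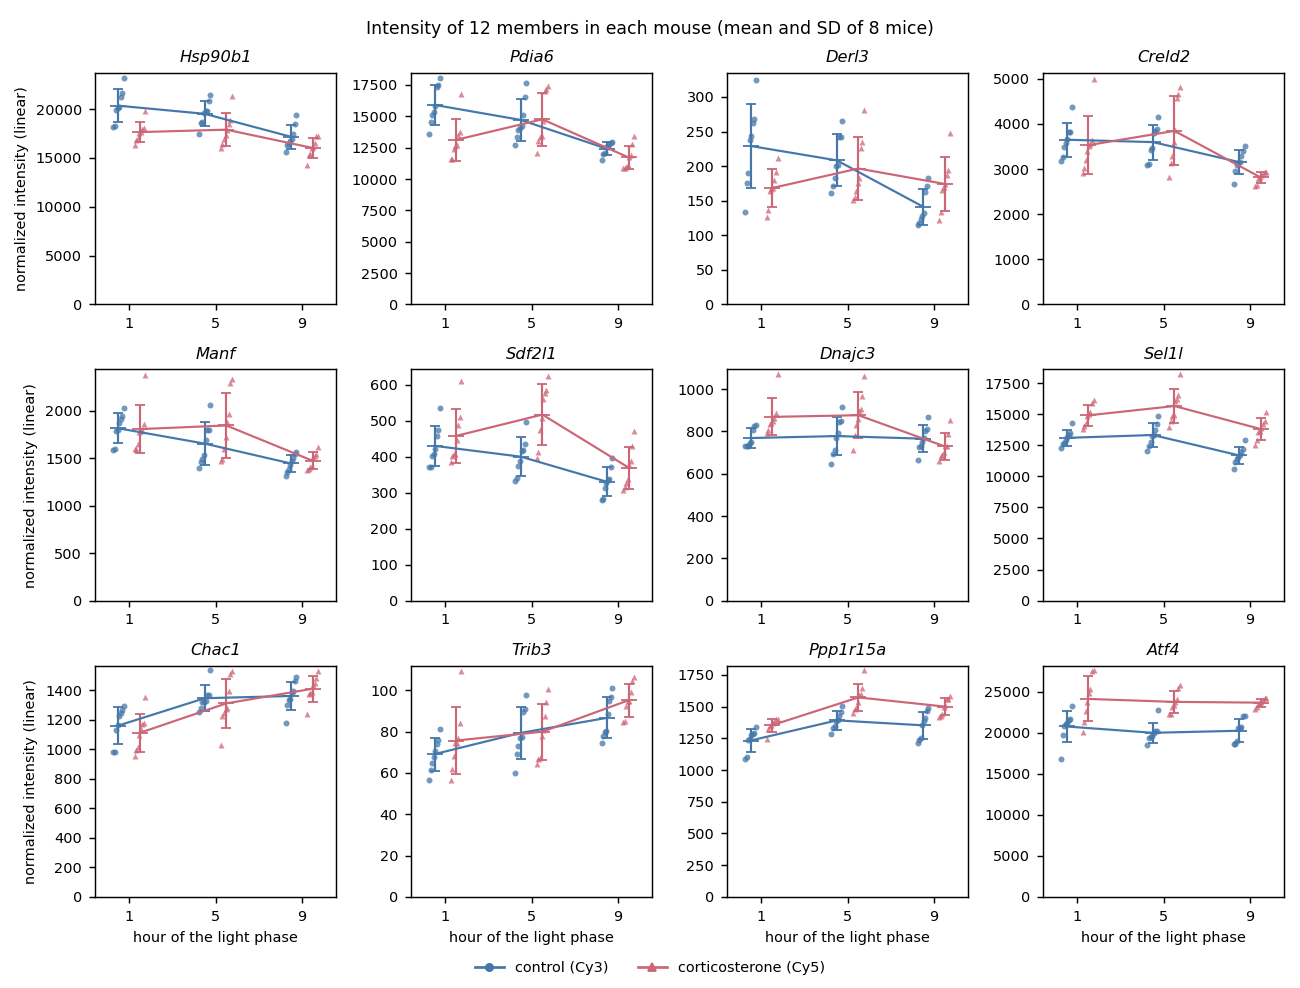
Intensity (linear axis) of 12 genes in every mouse at hours 1, 5 and 9 of the resting period, with control mice (Cy3) as circles, corticosterone-treated mice (Cy5) as triangles, and the mean ± SD of each group of 8. Control Pdia6 at hour 9 (11520 to 12980) lies below the whole range of hour 1 (13620 to 18070), and treated Ppp1r15a at hours 5 and 9 lies above the whole range of hour 1.

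In corticosterone-treated mice 3 genes of the PERK-ATF4 branch rose and 3 folding genes fell between the first and the ninth hour. These 6 genes passed the test (18.2%, against 4.02% of all probes and 6.23% of all named genes by their brightest probe), with Trib3, Chac1 and Ppp1r15a higher and Creld2, Manf and Dnajc3 lower at hour 9. Chac1 kept its call in 12 of 13 alternatives, Dnajc3 in 9, Manf in 7, Trib3 in 6, Creld2 in 5 and Ppp1r15a in 4. The share of all probes that were lower was 1.82% and the share that were higher was 2.21%. The luminal chaperones had a median log2 change of -0.21 with 6 of 8 below 0, and the 3 genes that rose were all in the PERK-ATF4 branch, whose median over its 7 members was 0.04. The protein disulfide isomerases had a median of -0.02, the J-proteins of -0.04, the sensors with Xbp1 of -0.10, and the degradation and translocon genes of 0.00. The median over all 33 was -0.03.

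Chac1 breaks down glutathione and is induced through ATF4. Treated mice ranged from 955.3 to 1353 around 1117 at hour 1, from 1027 to 1530 around 1277 at hour 5, and from 1237 to 1532 around 1414 at hour 9. Hour 9 was the highest group, and its range overlapped that of hour 1. Chac1 rose by 0.35 (SE 0.070, adjusted p = 0.000509), with within-slide differences of 0.32, 0.24 and 0.41, and the control mice differed by 0.23 in the same direction (adjusted p = 0.102).

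Trib3, a pseudokinase induced by ATF4 and CHOP, was dim. Treated mice lay between 56.33 and 109.2 (median 74.56) at hour 1, between 64.3 and 100.6 (median 79.44) at hour 5, and between 84.38 and 106.2 (median 94.79) at hour 9. The highest treated mouse of hour 1 was the mouse that stood apart. Trib3 rose by 0.35 (SE 0.109, adjusted p = 0.0484) between hours 1 and 9, and in control mice the difference was 0.33 (adjusted p = 0.182). The call in treated mice was kept in 6 of 13 alternatives. It was lost without the array of hour 1 low for Herpud1 in both mice (0.31, adjusted p = 0.118), without slide 1 or slide 2 (0.36 and 0.29, adjusted p = 0.429 and 0.309), with processed signals (0.28, adjusted p = 0.339), and, at adjusted p between 0.0569 and 0.0661, with an offset of 0, Aquantile normalization or no background correction.

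Ppp1r15a encodes GADD34, the phosphatase subunit that reverses the translational block set by PERK. Treated mice ranged from 1243 to 1404 (median 1365) at hour 1, from 1454 to 1788 (median 1562) at hour 5, and from 1419 to 1582 (median 1507) at hour 9. Every treated mouse of hours 5 and 9 lay above every treated mouse of hour 1, while ranges did not overlap for 0.118% and 1.06% of all probes in these comparisons. Ppp1r15a rose by 0.21 from hour 1 to hour 5 (SE 0.049, adjusted p = 0.00928), where it was the only gene of the 33 to pass (3.03%, against 0.546% of all probes, 0.858% of all named genes and 0.253% of probes that were higher), and by 0.15 from hour 1 to hour 9 (adjusted p = 0.0478). The call between hours 1 and 9 was kept in 4 of 13 alternatives, with adjusted p up to 0.40 where it was lost, and that between hours 1 and 5 in 9 of 13. In control mice the same differences were 0.18 (adjusted p = 0.265) and 0.13 (adjusted p = 0.202).

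The calls of the 3 genes that fell in treated mice between hours 1 and 9 were lost without the treated mouse that stood apart, and also when any 1 of the 3 slides was left out. Creld2, a disulfide isomerase-like protein of the ER, ranged from 2911 to 5006 (median 3457) at hour 1 and from 2623 to 2944 (median 2855) at hour 9, and its log2 change was -0.31 (SE 0.096, adjusted p = 0.0442). Manf ranged from 1592 to 2380 (median 1783) at hour 1 and from 1376 to 1617 (median 1468) at hour 9, with a change of -0.29 (SE 0.088, adjusted p = 0.0433). Dnajc3, the co-chaperone p58IPK that restrains PERK, ranged from 791.9 to 1072 (median 846.9) at hour 1 and from 660.8 to 852.3 (median 716.6) at hour 9, with a change of -0.25 (SE 0.069, adjusted p = 0.0148). In all of them the treated mice of hour 9 were low, with ranges that overlapped those of hour 1. Without the array of the mouse that stood apart, Creld2 differed by -0.23 (adjusted p = 0.145), Manf by -0.23 (adjusted p = 0.117) and Dnajc3 by -0.21 (adjusted p = 0.0601), and the count of called genes was 2, Chac1 and Trib3. Leaving out the array of hour 5 that stood apart instead gave 7 calls, with Hspa5 lower as the gene added. Slide 1 held 4 of the 8 arrays of hour 9 and 2 each of hours 1 and 5, and with slide as a block 5 genes were called. Sdf2l1 was gained, and Creld2 (-0.29, adjusted p = 0.0701) and Ppp1r15a (0.15, adjusted p = 0.0521) were lost. Ppp1r15a differed by 0.13 with an adjusted p of 0.117 between hours 1 and 9 without the mouse that stood apart. Without the other array of hour 1 that stood apart the count was 3, with Chac1 higher and Dnajc3 and Sdf2l1 lower, while Creld2 differed by -0.31 (adjusted p = 0.0597) and Manf by -0.29 (adjusted p = 0.0584).

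Between the fifth and the ninth hour, treated mice showed lower levels of 5 genes (15.2%, against 0.661% of all probes, 1.1% of all named genes and 0.387% of probes that were lower), and none was higher. These were Sdf2l1, Creld2, Pdia6, Dnajc3 and Sel1l. By role the median log2 change was -0.18 in the luminal chaperones, -0.17 in the protein disulfide isomerases, -0.11 in the J-proteins and 0.00 in the PERK-ATF4 branch, and over all 33 it was -0.07 with 24 below 0.

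Sdf2l1 ranged from 396.1 to 625.6 (median 533.4) in treated mice at hour 5 and from 309 to 471.8 (median 357.4) at hour 9. Hour 5 was its highest group of the 6, and control mice of that hour had a median of 401.8. Sdf2l1 fell by 0.48 (SE 0.104, adjusted p = 0.00789) between hours 5 and 9, with -0.39, -0.76 and -0.51 within the 3 slides.

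Creld2 was between 2821 and 4823 (median 3731) in treated mice at hour 5, and that median was above the highest treated mouse of hour 9 (2944). It fell by 0.43 from hour 5 to hour 9 (adjusted p = 0.0110). Pdia6 was between 12060 and 17390 (median 14030) at hour 5 and between 10880 and 13410 (median 11450) at hour 9, and it fell by 0.32 (SE 0.080, adjusted p = 0.0261). The ranges of Pdia6 overlapped, with hour 9 low.

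Dnajc3 fell by 0.26 (adjusted p = 0.0374), from a range of 714.4 to 1062 (median 876.2) at hour 5. Sel1l, the partner of the ubiquitin ligase Syvn1 (HRD1) in ER-associated degradation, ranged from 14000 to 18210 (median 15510) at hour 5 and from 12530 to 15210 (median 13770) at hour 9. Sel1l fell by 0.18 (SE 0.049, adjusted p = 0.0432), and its groups overlapped. The second probe of Sel1l gave 0.00 with no call. With slide as a block the adjusted p of Sel1l was 0.0525, and Creld2, Dnajc3, Pdia6 and Sdf2l1 were called. The count was 6 without the treated mouse that stood apart, with Manf added, and 4 without the array of hour 5 that stood apart, where Hspa5 was called and Dnajc3 and Sel1l were not.

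**Figure D2:**
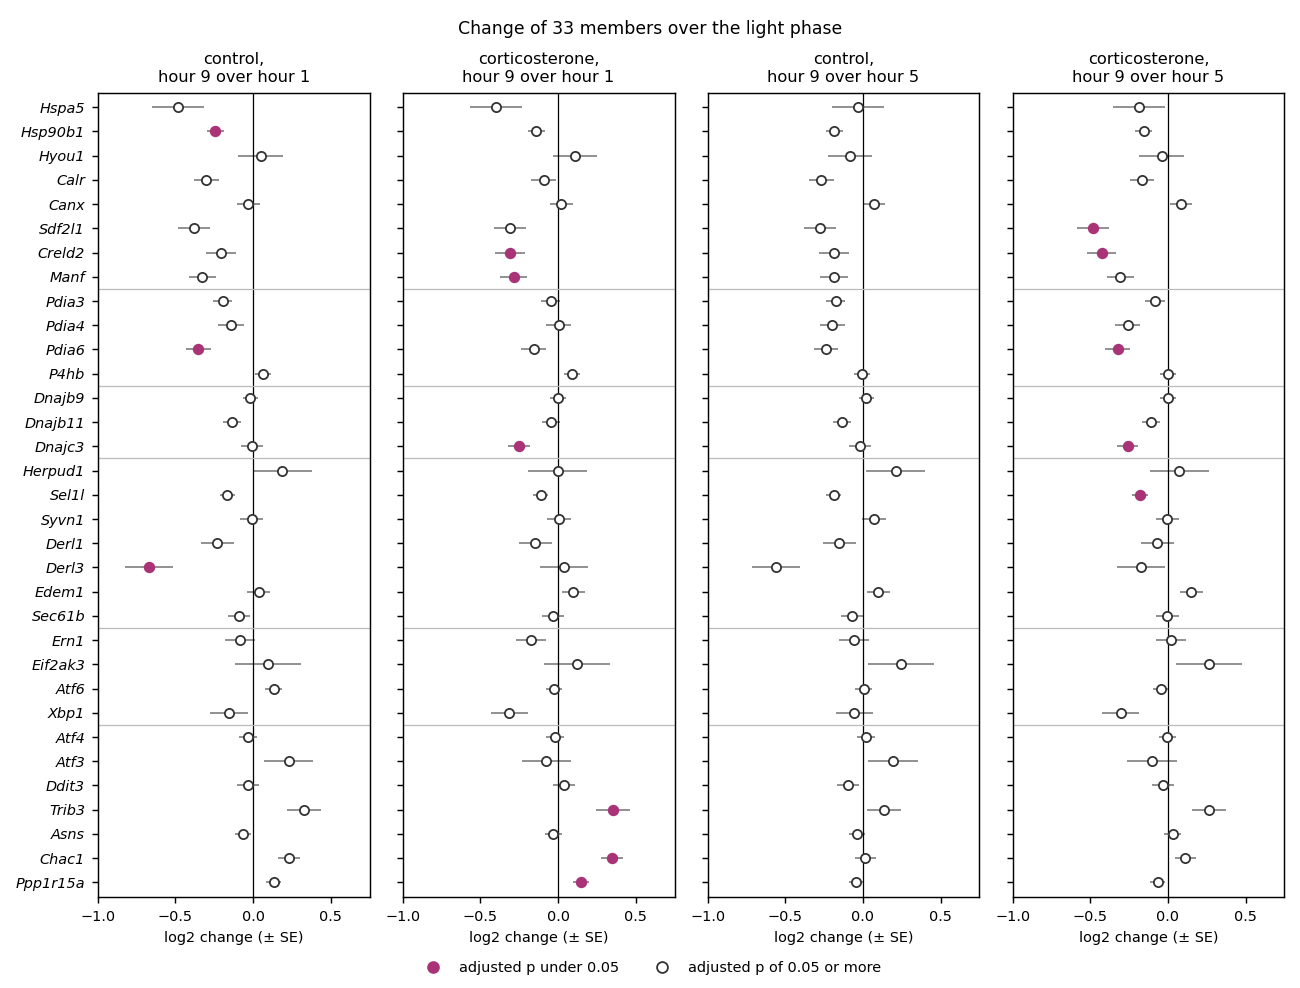
Log2 change ± SE of the 33 genes between hours, in panels for hour 9 over hour 1 and hour 9 over hour 5 in control and in corticosterone-treated mice, with filled points for an adjusted p below 0.05. Points of the chaperones lie mostly left of 0, and Chac1 and Trib3 lie right of 0 at 0.35 in treated mice between hours 1 and 9.

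The genes with an ERSE in the window were compared with those without one as a description, with no test. In control mice between hours 1 and 9, all 9 genes with the element were below 0, their median log2 change was -0.24, and 3 passed the test. Of the 20 genes with a window but no element, 12 were below 0, the median was -0.03 and none passed. In treated mice between hours 5 and 9, 8 of the 9 genes with the element were below 0 (median -0.17, 3 lower by the test) and 12 of the 20 without it were below 0 (median 0.00, 2 lower by the test). In treated mice between hours 1 and 9, 6 of the 9 and 11 of the 20 were below 0, with medians of -0.14 and -0.01. Between hours 1 and 5 in treated mice the 2 sets did not stand apart in this way, with 2 of 9 and 8 of 20 below 0 and medians of 0.02 and 0.03. These comparisons share mice, so they are not separate samples of the pattern. The element and the roles also overlap, since Calr, Canx, Creld2, Hsp90b1 and Hspa5 carry it and are luminal chaperones. The 3 genes that passed in control mice were Hsp90b1, Pdia6 and Derl3, already described. Manf, which had no window, is in neither set, and the part of the element apart from the role was not tested.

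Corticosterone-treated mice differed from control mice of the same hour in 11 of the 33 genes at hour 1, 9 at hour 5 and 5 at hour 9. By the brightest probes, levels in treated mice were higher for 5, 6 and 4 genes and lower for 6, 3 and 1. Atf4 is among the higher genes at each hour, although its second probe was lower. These counts are 33.3%, 27.3% and 15.2% of the list, while 17.5%, 18.1% and 14% of all probes and 20.7%, 20.8% and 15.6% of all named genes by their brightest probe were called, so the share at hour 9 was close to the background. The shares of all probes that were higher in treated mice were 8.85%, 8.62% and 7.01%, and those that were lower were 8.67%, 9.47% and 6.97%. Since the dyes were not swapped, each of these differences may hold a part from the dye, which cannot be told apart here. At hour 1, 8 genes were called without the array of that hour low for Herpud1 in both mice, and Asns, Derl3 and Dnajb11 were lost. At hour 5, 10 were called without the array of hour 5 that stood apart, where Hsp90b1 was lost and Atf3 and Hspa5 were gained, and the same fit gained Syvn1 at hours 1 and 9. Without the treated mouse that stood apart, Syvn1 took the place of Dnajc3 at hour 1, and Calr was gained at hour 9. A total of 13 genes were called at 1 or more hours and 20 at none. By their brightest probes, Dnajb9, Sel1l, Atf4 and Ppp1r15a (12.1%) were higher in treated mice at all 3 hours, where 5.91% of all probes were called at all 3 hours in 1 direction. Without Atf4 these are 3 of the 33 genes. The log2 differences of the called genes lay between -0.42 and 0.36, and the median over all 33 genes was between 0.00 and 0.04 at the 3 hours.

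Dnajb9 (ERdj4), a J-protein that directs BiP to its clients and keeps IRE1 inactive, lay between 3862 and 4463 (median 4021) in control mice and between 4374 and 5309 (median 4626) in treated mice at hour 1. At hour 5 control mice lay between 3419 and 4705 (median 3887) and treated mice between 4345 and 5127 (median 4618), and at hour 9 between 3800 and 4302 (median 4027) and between 4266 and 5134 (median 4623). Treated mice were high in each hour, and the ranges of the groups overlapped. The differences were 0.20 (SE 0.043, adjusted p = 0.000314), 0.24 (adjusted p = 2.07e-05) and 0.22 (adjusted p = 0.000146), and the treated mouse was the higher of the pair on 8 of 8 arrays at every hour. The second, dimmer probe of Dnajb9 gave 0.09, -0.04 and 0.09 with no call.

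Sel1l had medians of 13040, 13300 and 11600 in control mice and of 14940, 15510 and 13770 in treated mice at hours 1, 5 and 9. Control mice ranged from 12290 to 14280, from 12070 to 14880 and from 10620 to 12910, and treated mice from 13810 to 16170, from 14000 to 18210 and from 12530 to 15210. The treated groups were high and overlapped the control groups. The differences were 0.19 (SE 0.042, adjusted p = 0.000513), 0.23 (adjusted p = 2.61e-05) and 0.24 (adjusted p = 2.63e-05). The second probe of Sel1l gave -0.03, 0.00 and -0.09 with no call, so the difference was seen by the bright probe alone.

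Atf4, the transcription factor whose translation is favoured when PERK is active, had medians of 21090, 19750 and 20560 in control mice and 24300, 23550 and 23670 in treated mice. Control mice ranged from 16850 to 23220, from 18520 to 22750 and from 18660 to 22020 at hours 1, 5 and 9, and treated mice from 20060 to 27650, from 22270 to 25860 and from 22900 to 24290. At hour 9 the groups did not overlap, as was also true of Atf6, against 1.64% of all probes. The differences were 0.21 (SE 0.048, adjusted p = 0.000589), 0.25 (adjusted p = 7.86e-05) and 0.23 (adjusted p = 0.000414). The second probe of Atf4, which was dimmer, was called in the opposite direction at all 3 hours, with -0.18 (adjusted p = 0.014), -0.16 (adjusted p = 0.036) and -0.23 (adjusted p = 0.0028). Its medians were 1206, 1168 and 1231 in control mice and 1062, 1070 and 1064 in treated mice. No direction for Atf4 can therefore be given from the array.

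Ppp1r15a had medians of 1260, 1391 and 1375 in control mice and of 1365, 1562 and 1507 in treated mice, and only 1 probe. The control ranges were 1089 to 1337, 1281 to 1505 and 1217 to 1488, and each overlapped the range of treated mice of that hour. The differences were 0.14 (SE 0.042, adjusted p = 0.00976), 0.17 (adjusted p = 0.00097) and 0.15 (adjusted p = 0.00518), and the treated mouse was higher on 7, 8 and 8 of 8 arrays.

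Hsp90b1 was lower in treated mice at hours 1 and 5. Treated mice ranged from 16320 to 19770 (median 17560) at hour 1, from 16010 to 21290 (median 17590) at hour 5 and from 14310 to 17240 (median 16080) at hour 9. The treated median lay below the control median at each hour, and the ranges overlapped. The differences were -0.20 (SE 0.047, adjusted p = 0.000679), -0.13 (adjusted p = 0.0333) and -0.10 (adjusted p = 0.119), and the treated mouse was higher on 0 of 8 arrays at hours 1 and 5. The difference at hour 5 was -0.13 with an adjusted p of 0.0570 without the array of that hour that stood apart.

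Sdf2l1 differed at hour 5 alone among the 3 hours by the test, with 0.36 (SE 0.089, adjusted p = 0.00202) and the treated mouse higher on 8 of 8 arrays. Control mice lay between 333.2 and 496.9 and treated mice between 396.1 and 625.6. At hours 1 and 9 the differences were 0.08 (adjusted p = 0.555) and 0.16 (adjusted p = 0.241). The change of the difference from hour 1 to hour 5 was 0.28 and did not pass the test of the change.

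Dnajc3 was higher in treated mice at hours 1 and 5, by 0.17 (SE 0.059, adjusted p = 0.025) and 0.17 (adjusted p = 0.0257), with control medians of 747.2 and 782.4, and at hour 9 the difference was -0.07 (adjusted p = 0.442). Without the treated mouse that stood apart the difference at hour 1 was 0.14 (adjusted p = 0.0765). Sec61b, a subunit of the translocon through which proteins enter the ER, was lower in treated mice by -0.17 (SE 0.061, adjusted p = 0.0312) at hour 1 and -0.18 (adjusted p = 0.0222) at hour 5. Its control medians were 8184, 8006 and 7454 and its treated medians 7276, 6737 and 7012 at hours 1, 5 and 9, and the treated mice were low with overlapping ranges.

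Atf6 differed at hour 9 alone by the test. Control mice of hour 9 lay between 1044 and 1197 (median 1106) and treated mice between 871.4 and 1043 (median 1011), so every treated mouse was below every control mouse. The difference was -0.15 (SE 0.045, adjusted p = 0.0108), against 0.01 (adjusted p = 0.952) at hour 1 and -0.10 (adjusted p = 0.0777) at hour 5, where it was called without slide 2. The change between hours 1 and 9 was -0.16 (adjusted p = 0.395). Syvn1, the ubiquitin ligase HRD1, had a difference of -0.17 (adjusted p = 0.051) at hour 1 and of -0.15 (adjusted p = 0.0845) at hour 9 and was not called at any hour. The paired test on the log ratio of each array and the test on the deposited log2 ratios both called Syvn1 lower at hours 1 and 9.

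The remaining calls were made at hours 1 and 5. At hour 1 Pdia6 (-0.28, adjusted p = 0.00175), Derl3 (-0.42, adjusted p = 0.0172), the BiP co-chaperone Dnajb11 (-0.14, adjusted p = 0.0272) and Asns, the asparagine synthetase induced by ATF4 (-0.12, adjusted p = 0.0398), were lower in treated mice. Derl3 differed by -0.30 (adjusted p = 0.117), Dnajb11 by -0.12 (adjusted p = 0.0919) and Asns by -0.12 (adjusted p = 0.0745) without the array of hour 1 low for Herpud1 in both mice. Asns was also lower at hour 5 (-0.15, adjusted p = 0.009), where the treated mouse was the higher of the pair on 2 of 8 arrays. Dnajb11 by its second probe, about as bright as the first, was also lower at hour 1 (-0.16, adjusted p = 0.00781), and the dimmest probe of the gene, near background in most control mice, gave 0.04 (adjusted p = 0.971). The second probe of Asns gave -0.02 (adjusted p = 0.931) and 0.02 (adjusted p = 0.919) at hours 1 and 5. The paired test on log ratios gave Asns an adjusted p of 0.0578 at hour 1, and it added Pdia3 and Syvn1 to the calls at hour 1, Hspa5 and Pdia4 at hour 5, and Calr and Syvn1 at hour 9. The sensors Ern1 and Eif2ak3, the transcription factors Ddit3 (CHOP) and Atf3, and the mannosidase-like Edem1 had differences between -0.04 and 0.32 that did not pass the test at any hour. For Atf3, whose largest differences were 0.32 and 0.31 at hours 1 and 5, most control mice were not well above background.

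**Figure D3:**
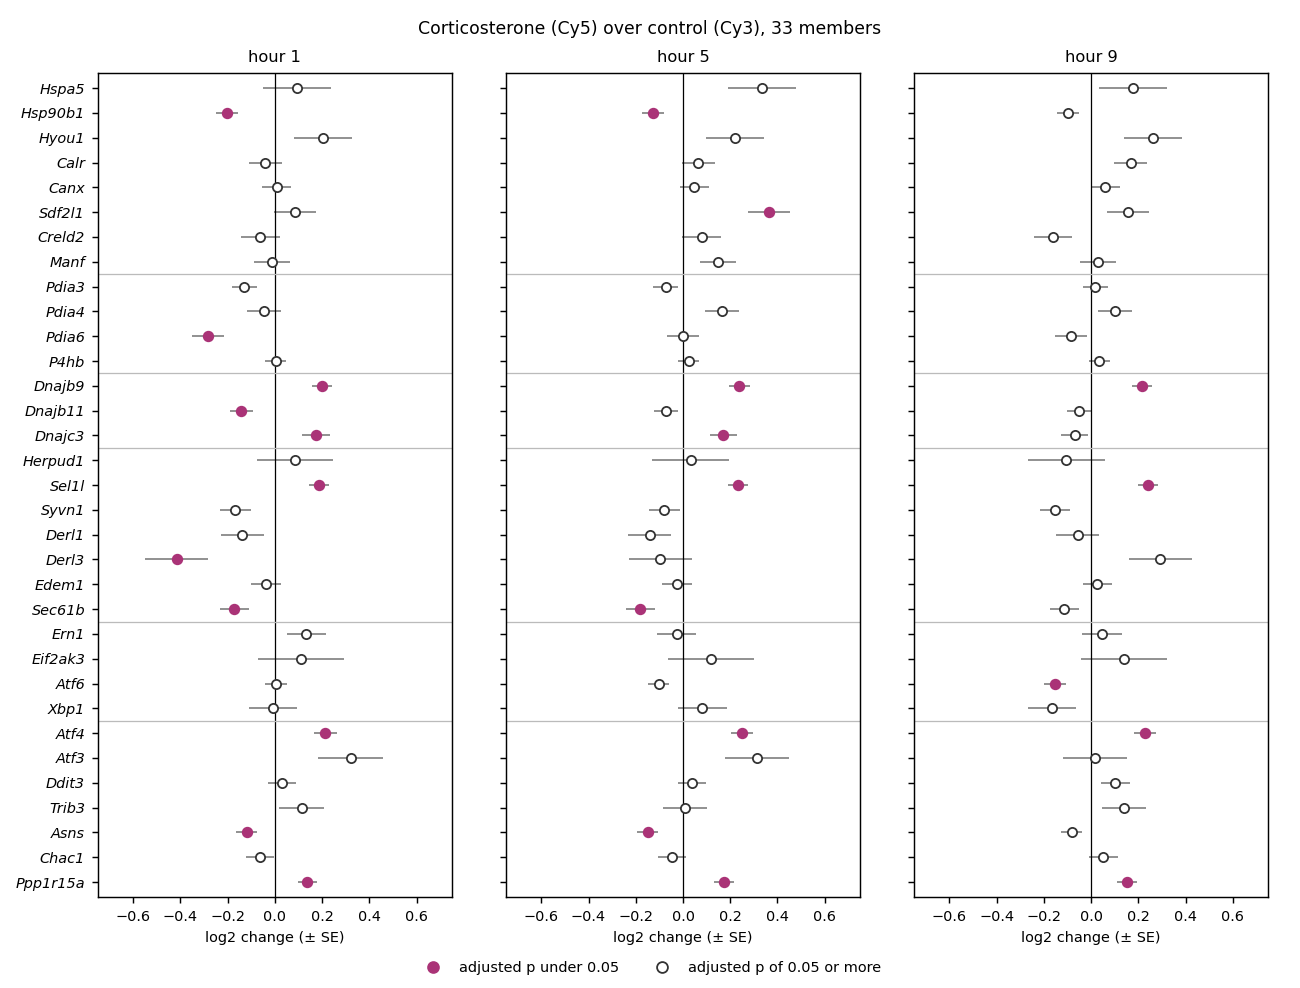
Log2 difference ± SE of corticosterone-treated over control mice for the 33 genes at hours 1, 5 and 9, with filled points for an adjusted p below 0.05. By their brightest probes Dnajb9, Sel1l, Atf4 and Ppp1r15a lie right of 0 at all 3 hours, while the second probe of Atf4, not plotted, was lower, and Derl3 lies at -0.42 at hour 1 and at 0.29 at hour 9.

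Derl3 alone had a treated-over-control difference that changed from hour 1 to hour 9 by the test (3.03%, against 0.827% of all probes, 1.45% of all named genes and 0.253% of probes with a rise). Treated mice lay between 126.3 and 212.2 (median 167.4) at hour 1 and between 121.6 and 247.7 (median 172.2) at hour 9, so the treated medians lay close together while the control median went from 240.6 to 130. The difference was -0.42 at hour 1 and 0.29 (adjusted p = 0.153) at hour 9, and its change was 0.71 (SE 0.189, adjusted p = 0.0468), with 0.59, 0.90 and 0.48 within the 3 slides. With slide as a block the adjusted p was 0.0560, and without the array of hour 1 low for Herpud1 the change was 0.59 with an adjusted p of 0.183. Without the array of hour 5 that stood apart the adjusted p was 0.0509. No gene passed for the change from hour 1 to hour 5 or from hour 5 to hour 9, where 3 of 33 had an unadjusted p below 0.05 in each, 0.0389% and 0.083% of all probes were called, and limma's test with slide as a block also called 0.

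A further list of 57 genes of the same pathways was read in the same way. In control mice between hours 1 and 9 only Slc3a2, a subunit of amino acid transporters and a target of ATF4, was called, with a rise of 0.26, and the median of the 57 genes was 0.00. In treated mice Cebpg (-0.22) and Uggt1 (-0.28), the folding sensor of glycoproteins, were lower at hour 9 than at hour 1, and Phgdh was 0.21 higher at hour 9 than at hour 5. The 2 genes called between hours 1 and 9 in treated mice are 3.51% of the list, below the 4.02% of all probes, and the 1 gene called in each of the other comparisons is 1.75% of it, against 0.537% of all probes in control mice and 0.661% in treated mice between hours 5 and 9. Between treated and control mice 10 of the 57 genes were called at hour 1 (3 higher, 7 lower), 11 at hour 5 (3 higher, 8 lower) and 7 at hour 9 (3 higher, 4 lower). These are 17.5%, 19.3% and 12.3% of the list, close to the shares of all probes (17.5%, 18.1% and 14%) and below those of all named genes (20.7%, 20.8% and 15.6%).

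Of these further genes, 4 (7.02%) were lower in treated mice at all 3 hours, near the 5.91% of all probes called at all 3 hours in 1 direction. Phgdh, the first enzyme of serine synthesis and a target of ATF4, differed by -0.35, -0.49 and -0.35, and Eif2s1, the translation factor that PERK phosphorylates, by -0.20, -0.26 and -0.22. The translocon-associated genes Ssr2 (-0.21, -0.22 and -0.16) and Spcs2 (-0.23, -0.25 and -0.16) were the others. Mthfd2, a mitochondrial folate enzyme and ATF4 target, was 0.37 higher at hour 1, and Slc7a11, the cystine transporter, differed by -0.27 and -0.26 at hours 1 and 5.

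Several genes were read by more than 1 probe, and the probes of Hspa5 and Xbp1 differed in which passed the test. Hspa5 by its brightest probe had medians of 15560, 13010 and 11590 in control mice and 16360, 16490 and 12980 in treated mice at hours 1, 5 and 9. The log2 change from hour 1 to hour 9 was -0.48 (SE 0.168, adjusted p = 0.198) in control mice and -0.40 (adjusted p = 0.198) in treated mice. The mice of hour 5 ranged from 4566 to 15910 in controls and from 5458 to 20270 in treated animals, and the lowest value of each came from the array on which both mice were low.

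The 2 dimmer probes of Hspa5 both passed the test. The second probe (A_55_P2617139) had control medians of 2488, 2296 and 1843 and treated medians of 2341, 2455 and 1768 at hours 1, 5 and 9, and the third (A_55_P2617149) had control medians of 1622, 1589 and 1227 and treated medians of 1660, 1657 and 1280. Both were low at hour 9 in both kinds of mice. From hour 1 to hour 9 the second probe fell by 0.44 in control mice (adjusted p = 0.037) and by 0.37 in treated mice (adjusted p = 0.033), and the third fell by 0.44 (adjusted p = 0.03) and by 0.35 (adjusted p = 0.048). From hour 5 to hour 9 in treated mice they fell by 0.43 (adjusted p = 0.035) and by 0.41 (adjusted p = 0.048). Across the 24 control mice, with the mean of each hour subtracted, the log2 values of these probes had r = 0.94 with each other and r = 0.07 and 0.06 with the brightest probe.

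Xbp1 by its brightest probe passed no test. Its dimmer probes (A_52_P185079 and A_55_P2739653) had treated medians of 885.8, 1144 and 782.5 and of 600.8, 819.3 and 569.5 at hours 1, 5 and 9, with the middle hour the highest. In treated mice they fell by 0.41 (adjusted p = 0.046) and by 0.44 (adjusted p = 0.031) from hour 5 to hour 9, and at hour 5 they were 0.31 (adjusted p = 0.014) and 0.34 (adjusted p = 0.0064) higher in treated than in control mice. Xbp1 and Sdf2l1 were thus both highest in the treated mice of hour 5, by these probes. The second probe of Manf also passed between hours 1 and 9 in treated mice (-0.32, adjusted p = 0.029). The second probe of Edem1 was called lower in treated mice at all 3 hours (-0.31, -0.23 and -0.23), and that of Herpud1, an ER membrane protein of the degradation machinery, higher at hours 1 and 5 (0.27 and 0.24), where the brightest probes of both genes were not called. The dimmest probe of Hyou1, a large chaperone of the HSP70 family, was lower in treated mice at hour 5 (-0.27, adjusted p = 0.00915), where its brightest probe was not called.

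**Figure D4:**
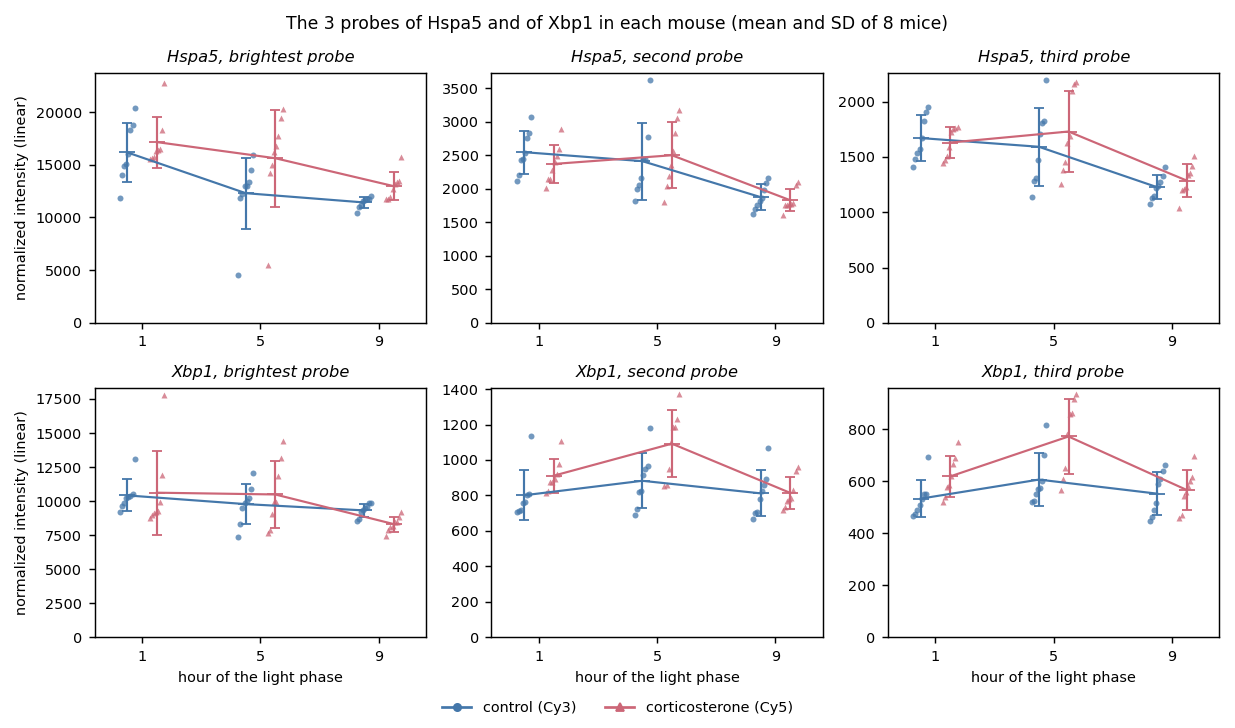
Intensity (linear axis) of the 3 probes of Hspa5 and the 3 probes of Xbp1 in every mouse by hour, with control mice as circles, treated mice as triangles and the mean ± SD of each group of 8. The dimmer probes of Hspa5 are low at hour 9 in both kinds of mice, and the dimmer probes of Xbp1 are highest in treated mice of hour 5.

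The spread between mice was small for most of the 33 genes. The SD of log2 intensity within an hour had a median of 0.143 in control mice (0.0856 to 0.45) and of 0.152 in treated mice (0.0745 to 0.515). The median correlation between the control and the treated mouse of an array, with hour means subtracted, was 0.355 over the 33 genes. It was 0.95 for Eif2ak3, 0.93 for Herpud1, 0.80 for Pdia3, 0.78 for Canx, 0.74 for Sec61b and 0.70 for Hspa5 by the brightest probe. For the dimmer Hspa5 probes it was 0.18 and 0.34. In all, 6 of the brightest probes had r above 0.7. For Eif2ak3, Herpud1 and Hspa5 these r include the arrays on which both mice were low, and r without those arrays was not computed. At hour 5 the lowest Eif2ak3 values, 191.3 in control and 184.3 in treated mice, came from such an array. The other mice of that hour had at least 583.9 in control and 750.9 in treated mice.

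Whether the genes followed Hspa5 from mouse to mouse was examined in 32 relations in each treatment, with hour means subtracted and 24 mice each. By the brightest Hspa5 probe, 2 relations passed in control mice by the permutation test after adjustment over these 32 alone, and both were positive. With the scanner's processed signals no relation passed in control or in treated mice. Xbp1 had r = 0.77 (rho = 0.69, permutation p = 6e-05, adjusted p = 0.00192) and r = 0.65 without the 2 mice farthest from the median of Hspa5. Syvn1 had r = 0.87 (rho = 0.57, permutation p = 0.00158, adjusted p = 0.0253), and r = 0.56 without those 2 mice, while the adjusted p of its rho was 0.129. In treated mice 5 relations passed, of which Canx, Herpud1, Syvn1 and Xbp1 were positive (r = 0.87, 0.67, 0.76 and 0.64). Without the 2 farthest mice these were 0.54, 0.34, 0.38 and 0.66, so the relations of Herpud1 and Syvn1 rested on those 2 mice. Ppp1r15a was negative with r = -0.79 (rho = -0.65, permutation p = 0.00012, adjusted p = 0.00192) and r = -0.70 without the 2 farthest mice. The median r of the 32 genes with the brightest probe was -0.09 in control and 0.01 in treated mice, against -0.07 and -0.09 over all other probes, and r was above 0.5 for 12.5% and 15.6% of the 32 genes, against 6.56% and 7.75% of all other probes.

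By the second Hspa5 probe, a choice made after seeing the data, other relations passed. In control mice these were 4, with Sdf2l1 at r = 0.85 (rho = 0.85, permutation p = 1e-05, which is the smallest the draws can give, adjusted p = 0.00032), Manf at 0.66, Calr at 0.63 and Creld2 at 0.59. In treated mice 7 passed, with Manf at r = 0.79 (rho = 0.76, permutation p = 0.00015, adjusted p = 0.0048), Pdia6 at 0.73 and Creld2 at 0.69 the closest, and Dnajb11, Derl1, Sdf2l1 and Ddit3 between 0.62 and 0.64. Without the 2 farthest mice r was between 0.63 and 0.81 for the 4 genes of control mice and between 0.46 and 0.72 for the 7 of treated mice. The number of relations that passed was then 5 in control mice and fell from 7 to 2 in treated mice. With the slide mean also subtracted it was 2 in control and 11 in treated mice. The median r of the 32 genes with this probe was 0.17 in control and 0.37 in treated mice, against 0.02 and 0.01 over all other probes, and r was above 0.5 for 15.6% and 28.1% of the 32 genes, against 2.46% and 1.84% of all other probes. These mice share arrays and slides with each other, and the correlations describe them without a direction.

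The treated mouse of hour 1 that stood apart was the highest of 8 for some genes of every role and the lowest for others. Of the 8 luminal chaperones it was highest for 4 (Hspa5, Sdf2l1, Creld2 and Manf) and lowest for 2 (Calr and Hyou1), and of the 4 protein disulfide isomerases it was highest for Pdia6 and lowest for 2 (Pdia3 and P4hb). Its Xbp1 intensity by the brightest probe was 17790 against a median of 9209 in the other 7 treated mice of that hour, 1.93-fold, and its Hspa5 intensity was 22790 against 16280. Sdf2l1 was 611.2 against 409.1, Creld2 5006 against 3401, Manf 2380 against 1776 and Pdia6 16810 against 12630. For each of these genes the mouse lay above the highest of the other 7. The control mouse on the same array had 9226 for Xbp1 and 11860 for Hspa5, the lowest control values of that hour.

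It was the lowest of the 8 for 6 genes. These were Calr (6245 against a median of 8922), Hyou1 (108.9 against 144.1), Pdia3 (2447 against 2879), P4hb (2127 against 2230), Chac1 (955.3 against 1137) and Ppp1r15a (1243 against 1374). Hsp90b1 and Canx were 1.03-fold and 1.08-fold of the median of the others. The dimmer Xbp1 probes were 0.98-fold and 0.94-fold of the median of the others, those of Hspa5 1.27-fold and 1.11-fold, and the second Manf probe 1.47-fold. On this array 73.5% of Cy5 spots were well above background, the highest share of all arrays, and 20.5% of all probes were highest and 20% lowest in this mouse. The part of the array in these values was not tested.

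**Figure D5:**
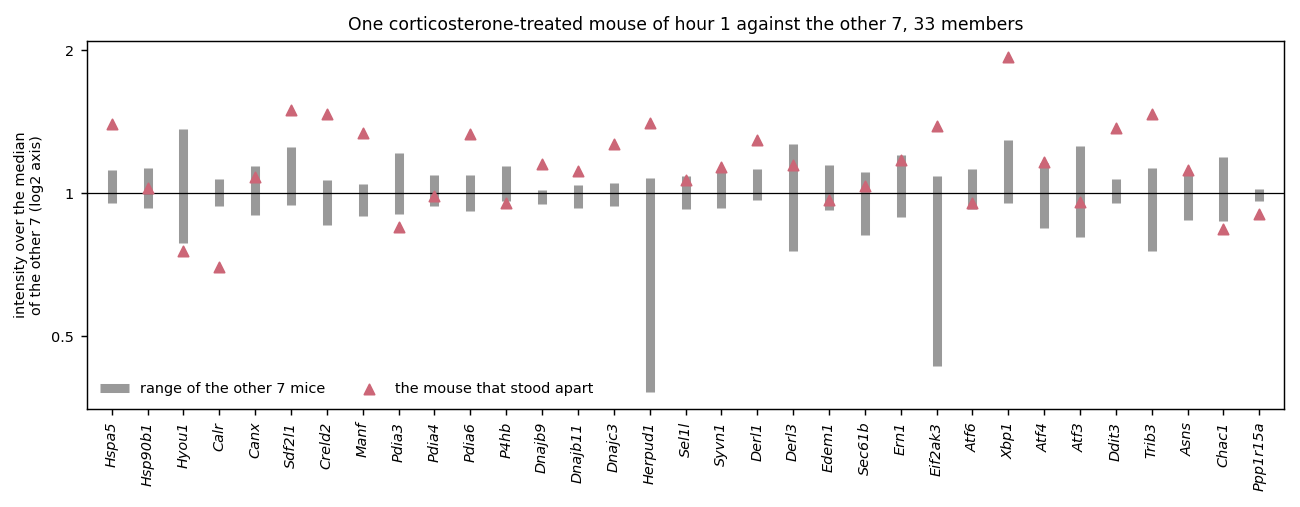
Intensity of each of the 33 genes in the treated mouse of hour 1 that stood apart (points), divided by the median of the other 7 treated mice of that hour (log2 axis), with bars for the range of those 7. Xbp1 is highest at 1.93-fold, and Calr is lowest at 0.70-fold.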

How the data were processed

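Total RNA of single hippocampi was labelled and hybridised in pairs on 24 two-colour Agilent arrays on 3 slides. Per the file headers, the Agilent Feature Extraction software gave median spot and background intensity in both channels on a linear scale, not yet normalized, with marks for outlier spots and for signal well above background. The authors also deposited a table of log2 ratios of Cy5 over Cy3, which served only as an alternative. Its values differed from loess-normalized ratios computed here by a median of 0.00119. The number of arrays limits the precision.

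The median intensities were processed in R 4.3.3 with limma 3.58.1 and statmod 1.5.0, by the background correction, normalization and test of the study's methods. The normexp background correction was run with an offset of 50 where p-values were computed and without one (0) where intensities, fold changes and standard errors were, followed by loess normalization within and quantile normalization between arrays. Outlier spots were left out, 3671 control spots were removed and copies of a probe were averaged, which left 56605 probes, none saturated. The study's methods do not describe leaving out outlier spots or averaging copies. Of these, 34566 were named through their accession with the RefSeq gene table of GRCm38.p6. The separate channel test (intraspot correlation 0.279) was fitted to the 6 groups of 8 mice, with the Benjamini-Hochberg adjustment over all 56605 probes and a threshold of 0.05. The script was tested on simulated data. Python 3.11.15 with scipy 1.17.1 was used for correlations (100000 permutations within hours) and motif searches. Promoter windows were not used for Atf6, Derl1, Hyou1 and Manf, which had no entry in the table used.

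All genes were read by the probe of highest mean intensity. Full values were given for genes called in any comparison between hours or in the change of the corticosterone effect, and for the 10 genes with the smallest adjusted p in treated over control mice that moved the same way on all 8 arrays of that hour. Other probes are given for genes whose probes were called differently. The genes and lists were chosen with earlier results of these data known. Alternatives were other offsets, background corrections and normalizations, the scanner's processed signals, slide as a block, each slide left out, a test on the log ratio of each array, a limit on dim probes, outlier spots kept, and 3 arrays left out in turn. One list of cell type markers is not reported here.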

Additional observations from a re-analysis of the deposited data

Results flagged for a closer look

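Among 198 groups of 8 mice, 30 had a mouse whose gap to its nearest neighbour, as a share of the whole range of the group, was above the limit of 0.526. Chance alone gives about 1 in 20 groups. The 30 came from 12 mice and 18 genes, and 1 treated mouse of hour 1 accounted for 9.

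Low mice made up the largest shares. Eif2ak3, by its brightest probe, had 0.879 in control mice of hour 1 and 0.779 of hour 5, and 0.676 and 0.93 in treated mice of these hours. Herpud1 had 0.875 and 0.707 in control mice and 0.694 and 0.742 in treated mice of hours 1 and 5. Hspa5 had 0.762 in control and 0.73 in treated mice of hour 5. In these groups the low control and the low treated mouse shared an array. Canx had 0.778 in treated mice of hour 5 and Syvn1 0.713 in control mice of hour 5.

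Among treated mice of hour 1, the shares of the highest mouse were 0.577 for Hspa5, 0.591 for Creld2, 0.681 for Ddit3, 0.658 for Dnajb9, 0.623 for Dnajc3, 0.612 for Manf, 0.535 for Pdia6 and 0.568 for Xbp1, and that of the lowest mouse was 0.693 for Calr. All 9 came from the mouse described above.

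For Atf3 at hour 9 the lowest mice, with 0.755 in control and 0.586 in treated mice, also shared an array. Single mice were also apart for Atf4 and Chac1 in control mice of hour 5 (highest, 0.563 each), Ern1 and Xbp1 in control mice of hour 1 (highest, 0.617 and 0.615), Hspa5 in treated mice of hour 9 (highest, 0.528), and Atf6 and Syvn1 in treated mice of hour 9 (lowest, 0.589 and 0.59).

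The difference of Derl3 between treated and control mice changed by 0.707 on the log2 scale from hour 1 to hour 9, which was a test of the change itself.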

How the results depend on the processing

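All 123 within-slide differences of the 41 called values had the sign of the whole. The calls were made on the same arrays, so part of this agreement was built in. Leaving out slide 1, 2 or 3 ended 27, 24 and 18 of these calls. For treated over control mice, the count of called genes of 11 at hour 1 was 7 without slide 1 and 4 without slide 2, and that of 5 at hour 9 was 0 without slide 1 and 8 with the authors' log2 ratios. For control mice between hours 1 and 9, the count of 3 was 5 with processed signals, 0 without slide 1, 1 without slide 2, 6 without the array of the treated mouse that stood apart and 7 without the array of hour 5 that stood apart. For treated mice between hours 1 and 9, the count of 6 was 2 with p-values at an offset of 0, 3 with processed signals, 1 without slide 1, 1 without slide 2, 2 without slide 3, and 2 and 3 without the arrays of hour 1 that stood apart. The count of 1 between hours 1 and 5 was 0 with processed signals and without slide 1, slide 2 or slide 3. Between hours 5 and 9 the count of 5 was 2 with an offset of 0, 0 without slide 1, 0 without slide 2 and 2 without slide 3. The call of Derl3 for the change of the difference (count of 1) was 0 with an offset of 0, Aquantile normalization, slide as a block, each slide left out, the log ratio test, the authors' ratios, or without either of the arrays that were low in both mice. The difference of Atf4 at hour 9 was reversed, at -0.0002847, by the mean over all its probes. Relations with Hspa5 passed in 0 genes with processed signals in control and in treated mice, against 2 and 5, and in 4 with its second probe in control mice and 8 with its dimmest probe in treated mice. Fewer arrays were fitted when slides were left out, and the cause of the other changes was not tested. Signal near background limits Atf3. Control and treated mice were paired by array. This pairing entered the fit as the intraspot correlation, and the paired test on the log ratio of each array kept 24 of 26 calls, lost Asns at hour 1 and the change of Derl3, and gained 2 genes at each hour. The labels do not pair mice between hours. Per the paper, the mice of each group came from several litters. Litter did not enter any fit, so littermates within a group were treated as independent.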
